A study of Mus musculus with 4 samples.

Results

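Accessible chromatin was described around 10 genes of the Notch pathway, the 4 receptor genes Notch1, Notch2, Notch3 and Notch4, the 4 ligand genes Dll1, Dll4, Jag1 and Jag2, and the 2 target genes Hey1 and Hey2. Overlapping ATAC-seq peaks of all libraries were merged into 40910 regions, of which 35041 lay within 100 kb of a protein-coding transcript start and were assigned to the gene with the nearest one. The 10 genes held 44 of these 35041 regions, and every gene had at least 1. Nearness to a start does not show that a region regulates that gene.

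ATAC-seq, in which a transposase cuts and tags open DNA, was performed on differentiating ES-E14TG2a cells, a line of mouse embryonic stem cells (mESCs) with no engineered change named in the labels. Both groups were grown in serum-free medium as embryoid bodies. The d4 cells had been dissociated, reaggregated and exposed to Activin A, BMP4 and VEGF, whereas the d2 cells were collected on day 2, before these factors. There were 2 libraries at d4 and 2 at d2, with replicates from separate differentiation experiments, and the comparison asks which regions open or close as endothelial differentiation begins. All libraries came from 1 cell line and from unsorted cultures, so that a change in the share of cells in which a region is open and a change in openness per cell cannot be told apart.

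Notch receptors sit in the cell membrane and are activated by Delta-like and Jagged ligands on neighbouring cells. Cleavage by ADAM proteases and then by gamma-secretase frees the intracellular domain, which enters the nucleus and joins the DNA-binding protein RBPJ and a Mastermind coactivator to switch on target genes, among them the Hes and Hey repressors. In blood vessels the pathway is known for arterial identity and for the choice between tip and stalk cells, and in the early heart and vessels Hey1 and Hey2 are among its best known targets.

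A list of peaks was deposited for each library, with 22511 and 21299 peaks at d4, and 26865 and 24544 at d2. Each peak has a fold enrichment at the summit. It is the ratio of the pileup (overlapping sequenced fragments or extended reads) to the local background, with 1 added to both. With low backgrounds it is therefore smaller than the plain ratio. Its median was 7.98 in both d4 libraries, against 7.70 and 8.69 at d2. The background coverage, solved from the peak lists, depends on depth and on the length of fragments or extended reads. It was 0.755 and 0.744 at d4, against 0.568 and 0.483 at d2, although the d4 libraries held fewer peaks. The median summit pileup over regions with a peak in all libraries was 25 and 24 at d4, against 22 and 27 at d2. Whether the libraries differed in depth or in the share of signal in peaks was not tested. The smallest summit pileup called was 7 in both d4 libraries and 6 in both d2 libraries. Over the regions with a peak in all libraries the log2 heights of the d4 libraries correlated at 0.880 and those of the d2 libraries at 0.779 (across 11494 regions, which are not independent replicates). Of 6 pluripotency markers, 2 and 3 had a peak within 1000 bp of a start at d4, against 5 and 6 at d2. Pou5f1 and Zfp42 were marked in both d2 libraries and neither d4 library, whereas Sox2 and Klf4 were marked in all libraries. Of 6 mesoderm markers, 2 and 4 had such a peak at d4, against 2 and 5 at d2. Of 8 endothelial markers, 5 and 3 had one at d4, against 4 and 5 at d2. The defining endothelial genes Cdh5 and Pecam1 had one only in d4 replicate 1, and Tek only in d4 replicate 2. In the other direction, Cldn5 had one in both d2 libraries and neither d4 library, and Eng only in d2 replicate 2. Kdr and Tal1 had one in all libraries, and Flt1 in all but d4 replicate 2. Of 3 neural markers, 2 had a peak in each library. Of 3 endoderm markers, 1 had a peak in each d4 library and 2 in each d2 library, and of 3 haematopoietic markers 1 had one in each library. The part of these cell types in the results below was not tested.

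The sequences of the regions on which the results turn are given first, from the mm10 (GRCm38) plus strand, read 5′ to 3′, with the position in each name counted from the gene's nearest coding start to the middle of the region. Except where noted they span 100 bases on each side of the summit of the strongest peak, without exon bases of coding transcripts. Capitals mark matches, on either strand, to any of 5 motifs. The GATA motif was searched as AGATAA and separately as TGATAA, the ETS motif as CCGGAA and separately as ACAGGAA, the AP-1 motif as TGAGTCA, the RBPJ motif as GTGGGAA and the E-box as CACGTG. The motifs do not overlap one another in these windows, and a match is a description of letters, not a bound site. The whole of the Notch1 region with peaks only at d4 (chr2:26475118-26475277) is shown because guide RNAs were designed against it in the study, and it holds an ETS match.
Notch1 +28.6 kb: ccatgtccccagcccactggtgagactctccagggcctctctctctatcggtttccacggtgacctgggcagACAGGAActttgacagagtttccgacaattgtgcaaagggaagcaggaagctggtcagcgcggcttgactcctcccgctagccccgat
The 3 guides of the study's oligo list that target this intron were located in the mm10 sequence and are printed 5′ to 3′ on their own strand with the adjoining PAM in capitals. The guide crRNA1 lies on the minus strand at chr2:26475012-26475031, outside the region by 86 bp. The guide crRNA2 lies inside it on the plus strand at chr2:26475207-26475226. The guide crRNA3 lies on the minus strand at chr2:26475396-26475415, 118 bp beyond the other edge, so that the outer pair spans 404 bp from end to end.
Notch1_int15-crRNA1: agagtcacctgggttactcgTGG
Notch1_int15-crRNA2: gtttccgacaattgtgcaaaGGG
Notch1_int15-crRNA3: tccagtgttcctatgatgccTGG
The regions with the highest enrichment among those with peaks only at d4 were far from Jag1 (chr2:137204507-137204707, with an AP-1 match) and Hey1 (chr3:8635533-8635733, with a GATA match).
Jag1 −88.0 kb: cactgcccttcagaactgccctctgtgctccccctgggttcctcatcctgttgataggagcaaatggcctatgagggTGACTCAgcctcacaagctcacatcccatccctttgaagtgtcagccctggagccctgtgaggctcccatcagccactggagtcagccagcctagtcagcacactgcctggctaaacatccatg
Hey1 +31.6 kb: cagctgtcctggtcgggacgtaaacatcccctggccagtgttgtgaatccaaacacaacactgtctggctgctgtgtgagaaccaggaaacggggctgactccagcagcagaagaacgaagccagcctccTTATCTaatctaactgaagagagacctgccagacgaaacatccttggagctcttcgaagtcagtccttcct
Of the regions with peaks only at d2, 4 are shown: the Notch2 intron with the highest enrichment (chr3:98024426-98024626), the 1 at a coding start, an internal one of Dll1 (chr17:15375977-15376127), and the pair with an E-box match, upstream of Dll4 (chr2:119322652-119322852) and inside Jag1 (chr2:137114257-137114457).
Notch2 +11.0 kb: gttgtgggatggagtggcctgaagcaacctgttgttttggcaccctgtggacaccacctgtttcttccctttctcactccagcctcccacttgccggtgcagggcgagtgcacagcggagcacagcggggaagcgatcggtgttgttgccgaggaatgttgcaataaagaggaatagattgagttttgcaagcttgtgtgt
Dll1 +0.0 kb: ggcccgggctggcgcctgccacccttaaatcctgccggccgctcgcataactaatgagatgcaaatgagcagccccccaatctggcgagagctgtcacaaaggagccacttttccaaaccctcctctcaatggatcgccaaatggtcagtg
Dll4 −3.1 kb: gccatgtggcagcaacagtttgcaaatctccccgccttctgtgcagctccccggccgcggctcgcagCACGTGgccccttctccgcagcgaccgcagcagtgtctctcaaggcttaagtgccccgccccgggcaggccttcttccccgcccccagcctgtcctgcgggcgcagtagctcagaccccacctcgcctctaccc
Jag1 +2.1 kb: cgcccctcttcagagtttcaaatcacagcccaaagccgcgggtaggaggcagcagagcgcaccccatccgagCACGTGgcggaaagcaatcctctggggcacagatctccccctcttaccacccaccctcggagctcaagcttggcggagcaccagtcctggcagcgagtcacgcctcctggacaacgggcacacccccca
The starts of Hey2 and Hey1, with peaks in all 4 libraries, are shown for their RBPJ matches. They lie at chr10:30842804-30843004 and at chr3:8667004-8667033 in the first exon of Hey1, where only 30 bases around the match are given.
Hey2 −0.1 kb: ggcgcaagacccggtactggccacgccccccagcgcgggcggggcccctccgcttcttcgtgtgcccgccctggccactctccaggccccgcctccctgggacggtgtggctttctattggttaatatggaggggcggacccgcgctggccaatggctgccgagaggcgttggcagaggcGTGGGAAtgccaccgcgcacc
Hey1 +0.2 kb site: caaccatccctTTCCCACgctgcgcccctt

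Around the 10 genes, as many regions had peaks in both d4 libraries alone as in both d2 libraries alone. A region was called gained when both d4 libraries and neither d2 library had a peak, lost in the reverse case, and shared when all 4 had one. There were 6 gained regions, at Notch1, Dll1, Jag1 and Hey1, and 6 lost regions, at Notch2, Dll1, Dll4 and Jag1. A further 10 regions were shared, 3 had a peak in 3 libraries and 2 had a peak in 1 library of each time point. The other 17 had a peak in a single library, which was a d4 library for 4 regions and a d2 library for 13. Such regions were 38.6% of the 44, against 34.5% of all assigned regions, whose split by time point is not given here. Over all assigned regions, too, each d2 library had more regions with a peak than either d4 library. Gained regions were 13.6% of the 44, against 8.48% of all assigned regions. Lost regions were 13.6%, against 13.2%, and shared regions 22.7%, against 31.9%. Peak lists hold no value where no peak was called, and with 2 libraries on each side no exact permutation p can fall below 0.333, so presence was not tested between time points.

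The 44 regions comprised 12 within 1000 bp of a start and 32 farther away. All 6 gained regions were distal, which makes 18.8% of the 32 distal regions, against 14.0% of all assigned distal regions. Of the lost regions 5 were distal, which makes 15.6%, against 17.0%, and 1 was at an internal start of Dll1. Of the 10 shared regions 7 were at starts, against 83.6% of all shared regions. The median width was 209.5 bp for the gained, 418.5 bp for the lost and 597.5 bp for the shared regions of the 10 genes, and 281, 288 and 607 bp over all assigned regions of these kinds. The median distance to the start was 39.2 kb for the gained regions, against 3.29 kb for the lost ones, while over all assigned regions these medians were 21.3 kb and 9.44 kb. Regions with a peak numbered 20 and 22 in the d4 libraries, against 25 and 27 in the d2 libraries. Over all assigned regions they numbered 19423 and 18529 at d4, against 23133 and 22178 at d2, so both sets had fewer at d4.

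**Figure D1:**
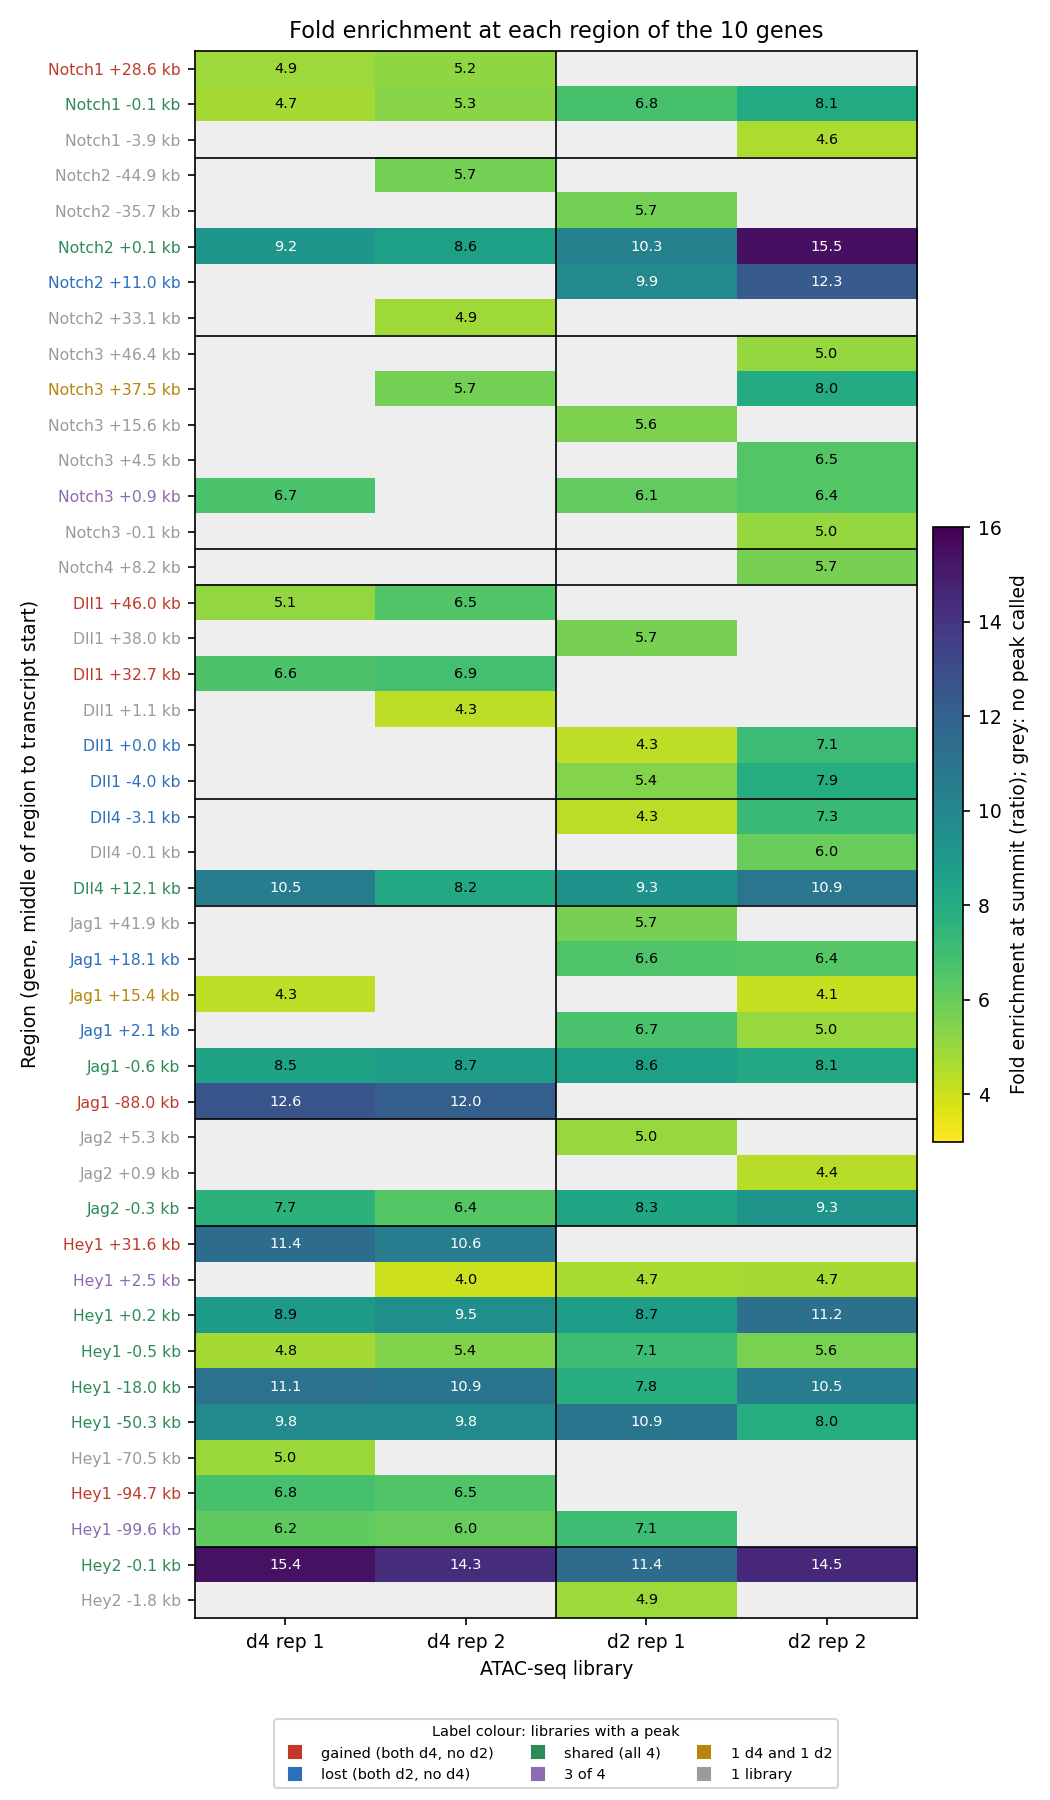
Fold enrichment at the summit (colour and number) of each of the 44 regions (down the page, named by gene and by distance in kb from the start to the middle of the region) in the 2 d4 and 2 d2 libraries (across), with grey where no peak was called. Hey2 −0.1 kb had the highest d4 values, 15.40 and 14.31, and the single Notch4 region had a peak in d2 replicate 2 only.

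**Figure D2:**
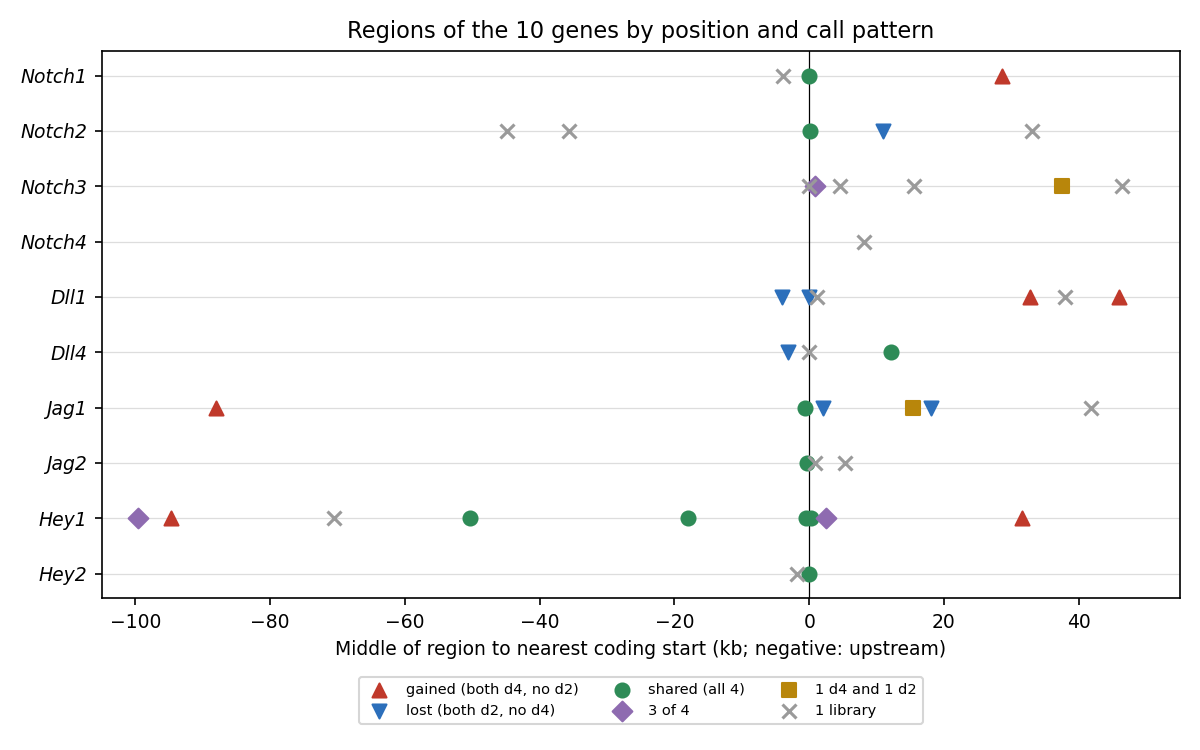
Position of each region relative to the nearest coding start of its gene (across, in kb, negative upstream) for the 10 genes (down the page), with symbols for the libraries in which it had a peak. The 6 gained regions all lay more than 1000 bp from a start, and 7 of the 10 shared regions lay within that distance.

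The receptor genes held 15 regions, of which 1 was gained, 1 was lost, 2 were shared and 9 had a peak in a single library. Notch1, the receptor with a central part in vascular development, is on the minus strand of chromosome 2 at 26457903 to 26516663. Its gained region, in intron 15 of 33, had fold enrichments of 4.90 and 5.15 in the d4 libraries and no peak at d2. Both were weak peaks, with summit pileups of 10 and 11 and −log10 q values of 4.36 and 4.98. They ranked at the 4.3 and 6.6 percentile of the peaks of their libraries, and at a −log10 q of at least 5 neither was left. The ETS match in the sequence above starts at −76 bp from the summit. At the Notch1 start (chr2:26503522-26504230), all libraries had a peak, with fold enrichments of 4.73 and 5.30 at d4, against 6.80 and 8.05 at d2. The groups did not overlap there, and the d2 peaks were the higher ones. With 2 libraries on each side such separation has an exact permutation p of 0.333. Its share over all shared regions is not given here. A further Notch1 region at −3.9 kb had a peak of 4.60 in d2 replicate 2 alone. Within the gene body, 1 more region was nearer to the start of Sec16a and was assigned to that gene.

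Notch2, a receptor expressed in many embryonic tissues, lost a region in its first intron. This region (chr3:98024375-98024713) had fold enrichments of 9.89 and 12.28 at d2, with pileups of 25 and 27, and no peak at d4. It was the only lost region of the 10 genes that also remained lost at a −log10 q of at least 10 and among the 15000 strongest peaks of each library. At the Notch2 start (chr3:98013159-98014039) the fold enrichment was 9.17 and 8.63 at d4, against 10.31 and 15.47 at d2. The groups did not overlap, but d2 replicate 1 was closer to the d4 libraries than to its own replicate. The other Notch2 regions had 1 peak each, of 5.71 at −44.9 kb and 4.86 at +33.1 kb in d4 replicate 2, and of 5.74 at −35.7 kb in d2 replicate 1.

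Notch3 and Notch4 had no region that was gained, lost or shared. Notch3, a receptor best known from the smooth muscle of arteries, had a region at +0.9 kb with fold enrichments of 6.69 in d4 replicate 1, and 6.10 and 6.42 in the d2 libraries. A region downstream of the gene, at +37.5 kb, had 5.73 in d4 replicate 2 and 7.98 in d2 replicate 2. The start of Notch3 itself had a peak only in d2 replicate 2, of 5.05. The other 3 regions of Notch3 also had 1 peak each, between 5.04 and 6.47, all in d2 libraries. Notch4, a receptor known mainly from endothelial cells, had a single region, in exon 10 of 30, with a fold enrichment of 5.66 in d2 replicate 2, and none at its start. Of the 4 regions in the Notch4 gene body, the other 3 were nearer to the start of Gpsm3.

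The ligand genes held 18 regions, of which 3 were gained, 5 lost and 3 shared. Dll1, a Delta-like ligand with known roles in mesoderm segmentation and neural development, had both kinds. At an internal start of Dll1 (chr17:15375778-15376121) the fold enrichment was 4.27 and 7.08 in the d2 libraries, and no peak was called at d4. The outer start of the gene, at 15376872, had no peak over it in any library. The upstream region at −4.0 kb (chr17:15380644-15381189) had 5.42 and 7.93 at d2 and likewise no peak at d4. Both lost regions were thus stronger in d2 replicate 2. The gained regions lay past the end of the gene. The one at +46.0 kb (chr17:15329869-15330060) had 5.13 and 6.53 at d4, on pileups of 8 and 12, and the one at +32.7 kb (chr17:15343172-15343398) had 6.63 and 6.91, on pileups of 11 and 12. All 4 values rest on low pileups. A region between them, at +38.0 kb, had a peak of 5.65 in d2 replicate 1 only, and one at +1.1 kb a peak of 4.32 in d4 replicate 2 only.

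Dll4, the ligand associated with arterial and tip cells, had a shared region behind the gene, a lost region in front of it, and only 1 peak at its start. The shared region at +12.1 kb (chr2:119337625-119338239) had fold enrichments of 10.54 and 8.17 at d4, against 9.30 and 10.91 at d2, and the groups overlapped. The lost region at −3.1 kb (chr2:119322480-119322972) had 4.33 and 7.26 at d2 on pileups of 14 and 31, and no peak at d4. The start had a peak in d2 replicate 2, of 5.97, and in no other library.

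Jag1, a Jagged ligand required for vascular and heart development, gained the most enriched region of the 6. This region lay at −88.0 kb (chr2:137204526-137204687), with fold enrichments of 12.62 and 12.04 at d4 and no peak at d2. It ranked at the 80.5 and 73.4 percentile of the peaks of its libraries, and it stayed gained at a −log10 q of at least 10. Jag1 lost a pair of intronic regions. The one in intron 5 (chr2:137098412-137098611) had 6.58 and 6.42 at d2, and the one in intron 2 (chr2:137114240-137114792) had 6.72 and 4.99 at d2. Its start region (chr2:137116685-137117719) was shared, with 8.49 and 8.72 at d4, against 8.61 and 8.14 at d2, and the groups overlapped. A region at +15.4 kb had 4.27 in d4 replicate 1 and 4.12 in d2 replicate 2, among the weakest peaks of both libraries, and one at +41.9 kb had 5.66 in d2 replicate 1.

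Jag2, the other Jagged ligand, had a shared region at its start (chr12:112929758-112930337), with fold enrichments of 7.67 and 6.43 at d4, against 8.33 and 9.28 at d2. The d2 values were higher and did not overlap those at d4, with the limit given for the Notch1 start. Its other regions had a peak of 5.03 in d2 replicate 1 at +5.3 kb and of 4.42 in d2 replicate 2 at +0.9 kb.

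The Hey genes held 11 regions, with 2 gained, none lost and 5 shared. Hey1, a transcriptional repressor induced by Notch signalling, accounted for 9 of them. The gained region at +31.6 kb (chr3:8635401-8635940) had fold enrichments of 11.38 and 10.55 at d4, on pileups of 35 and 25, and no peak at d2. With the Jag1 region at −88.0 kb it was one of 2 gained regions that stayed gained at a −log10 q of at least 10. The other gained region, at −94.7 kb (chr3:8761807-8762182), was weaker, with 6.80 and 6.53. Close to it, a region at −99.6 kb had 6.16 and 6.04 at d4, and 7.06 in d2 replicate 1, with no peak in d2 replicate 2.

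The Hey1 start was marked by peaks in all libraries. The region at +0.2 kb (chr3:8666741-8667273) had fold enrichments of 8.94 and 9.54 at d4, against 8.73 and 11.21 at d2, and the one at −0.5 kb (chr3:8667504-8668051) had 4.75 and 5.44 at d4, against 7.06 and 5.61 at d2. The groups overlapped at the first, and at the second the d2 values were the higher ones. In summit pileup the order at the second was the reverse, with 22 and 20 at d4, against 19 and 18 at d2. Upstream, the region at −18.0 kb had 11.09 and 10.93 at d4, against 7.85 and 10.52 at d2, and the d4 values were higher. The region at −50.3 kb had 9.83 and 9.78 at d4, against 10.93 and 7.95 at d2. The last exon, at +2.5 kb, had 3.97 in d4 replicate 2, and 4.65 and 4.74 in the d2 libraries, and a region at −70.5 kb had 4.97 in d4 replicate 1 only.

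Hey2, a relative of Hey1 with known roles in the ventricle and in arterial cells, had a peak at its start in all libraries. The region (chr10:30842424-30843305) had fold enrichments of 15.40 and 14.31 at d4, against 11.38 and 14.48 at d2. It ranked at the 98.4 and 96.8 percentile of the d4 peaks and at the 95.2 and 97.3 percentile of the d2 peaks, and the groups overlapped. The only other Hey2 region, at −1.8 kb, had 4.89 in d2 replicate 1.

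The heights of the 10 shared regions could be compared between time points with limma, using the log2 summit pileup centred in each library on the median of all shared regions. Of these, Hey1 −50.3 kb alone passed an adjusted p of 0.05 and was higher at d4. Over all 11494 shared regions, 6.20% were higher at d4 and 2.78% lower, so that 1 of 10 is near the background. The Hey1 −50.3 kb region had pileups of 36 and 34 at d4, against 25 and 15 at d2. All d4 values were above the d2 values, and the d2 replicates differed widely from each other. Its log2 difference was 0.81 (95% interval 0.29 to 1.34, limma adjusted p = 0.0399). Without d2 replicate 2 the difference was 0.32 (limma adjusted p = 0.496), with the deposited fold enrichment in place of pileup it was 0.18 (adjusted p = 0.786), and it passed in 3 of 10 alternative settings.

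At the other Hey regions mean heights were higher at d4 under median centring and lower at d4 under division by background coverage, and none passed. Under median centring the differences were 0.31 for Hey2 −0.1 kb (pileups of 68 and 57 at d4, against 44 and 56 at d2), 0.37 for Hey1 +0.2 kb, 0.17 for Hey1 −0.5 kb and 0.42 for Hey1 −18.0 kb, with limma adjusted p between 0.264 and 0.778. Under division by background coverage they were between −0.34 and −0.09. The median difference over all shared regions was 0.05 under the first scaling and −0.46 under the second, on the log2 scale.

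Among the receptors, heights could be compared at the starts of Notch1 and Notch2 only. Notch1 had summit pileups of 13 and 15 at d4, against 19 and 27 at d2, and a log2 difference of −0.67 (95% interval −1.23 to −0.11, unadjusted p = 0.0204, limma adjusted p = 0.127). Notch2 had 24 and 20 at d4, against 25 and 41 at d2, with a difference of −0.53 (limma adjusted p = 0.177). Neither passed the threshold. Divided by background coverage, the differences were −1.18 and −1.04, and both passed, in a fit that called 9.74% of all shared regions lower at d4 and 0.191% higher. The difference at the Jag2 start was −0.62 (limma adjusted p = 0.136), from pileups of 17 and 16 at d4, against 23 and 29 at d2, and it passed under the same scaling at −1.13. Jag1 at its start had a difference of 0.17 (95% interval −0.24 to 0.58), or −0.34 with division by background coverage, and the Dll4 region one of −0.18 (95% interval −0.72 to 0.37), which leaves room for changes of either sign.

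**Figure D3:**
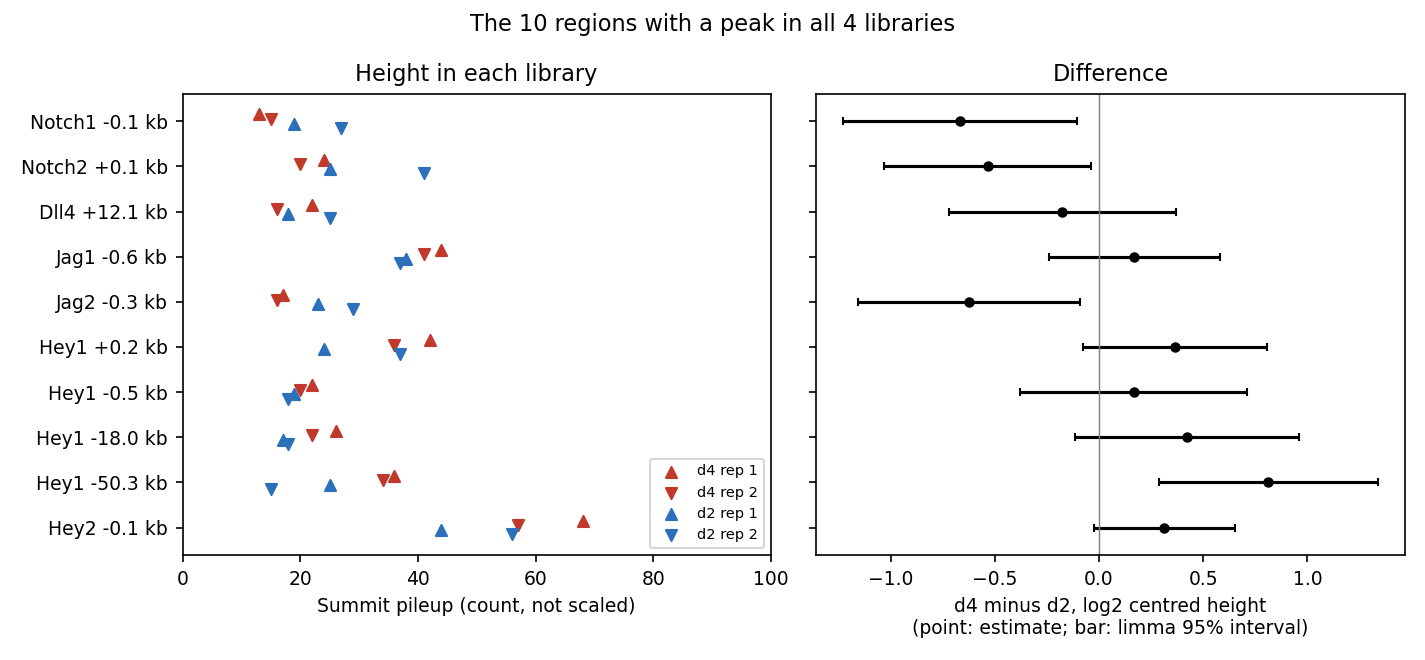
Summit pileup (count, not scaled) in each d4 (red) and d2 (blue) library on the left, and the d4 minus d2 difference in log2 centred height on the right (point, estimate; bar, limma 95% interval), for the 10 shared regions. The difference was 0.81 at Hey1 −50.3 kb and −0.67 at the Notch1 start.

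The motifs were counted in all assigned regions in the same way. Among the 10 shared regions, 4 held the RBPJ motif within 100 bp of the summit, against 3.67% of all shared regions. All 4 belonged to Hey1 and Hey2, which had 5 shared regions in all. At the starts of Hey1 and Hey2 they begin at −96 and 80 bp from the summit. In the RefSeq promoter of Hey2 (GRCm38.p6, 300 bases around the start), 2 RBPJ matches were found, and 6.38% of all such promoters hold at least 1. Of the 10 genes, 9 had an entry among these promoters. None of the 6 gained or 6 lost regions held an RBPJ match, a motif found in 5.69% of all gained and 4.53% of all lost regions. Notch2 +33.1 kb and Notch3 +4.5 kb, each with a peak in a single library, held one too. In all, 6 of the 44 regions held the motif, or 13.6%, against 4.55% of all assigned regions. RBPJ matches also stood in 6 of the 38 shared regions of other pathway genes, or 15.8%.

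Gained regions of the whole series often held a GATA motif (49.7%), a motif of factors active in blood, endothelial and heart cells. Of the 6 gained regions of the 10 genes, 1 did, Hey1 +31.6 kb. An ETS motif was found in 1 of the 6, the Notch1 intron, against 18.5% of all gained regions, and an AP-1 motif in 1, Jag1 −88.0 kb, against 9.72%. The gained regions of Dll1 and the one at Hey1 −94.7 kb held none of the motifs searched. Of the 6 lost regions, Dll4 −3.1 kb and Jag1 +2.1 kb held the E-box CACGTG, against 4.31% of all lost regions. The E-box also stood in Hey1 −18.0 kb, Notch3 +0.9 kb and Notch2 +33.1 kb, which were not lost. In all, 5 of the 44 regions held it, or 11.4%, against 5.19% of all assigned regions. No test was made of these small counts.

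The 44 other genes of the pathway on a list of ligands, proteases, nuclear factors, targets and modifiers were looked at in the same way, and 43 had a region, Rbpjl being the exception. Of their 132 regions 10 were gained, 23 were lost and 38 shared, which makes 7.6%, 17.4% and 28.8%, against 8.48%, 13.2% and 31.9% of all assigned regions. Of the 43 genes 3 had only gained regions, 13 only lost regions, 5 both and 22 neither, or 7.0%, 30.2%, 11.6% and 51.2%. Over all genes with a region these shares were 10.3%, 19.6%, 4.9% and 65.1%, and the differences were not tested. In the nuclear complex, Rbpj, the DNA-binding partner of Notch, gained a region at +37.4 kb with fold enrichments of 6.84 and 6.51 at d4. Among the Mastermind coactivator genes, Maml2 gained 2 regions and lost 1, and Maml3 gained 1, at +51.9 kb with 9.45 and 9.39 at d4, and lost 3. Spen, a corepressor gene, lost a region.

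Among the other Hes and Hey genes, Hes1 gained a pair of distal regions. Their fold enrichments at d4 were 6.70 and 5.73 at +90.5 kb and 6.92 and 6.90 at +95.3 kb. Hes1 also lost a region at +1.6 kb, with 4.27 and 3.96 at d2. Whether Notch induces each of these genes was not tested. Hes3, Hes6, Heyl and Nrarp, a feedback inhibitor of Notch, had only losses, of 1 region each. The Hes6 region at −1.0 kb had 7.32 and 9.36 at d2 and no peak at d4.

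The 3 Fringe genes, whose glycosyltransferases modify the receptors and change their preference for ligands, each lost 1 region and gained none. Lfng held 2 regions, Mfng 1 and Rfng 2. Genes with only lost regions were 30.2% of the other pathway genes with a region and 19.6% of all genes with a region. Mfng lost the region at its start, with fold enrichments of 6.37 and 8.68 at d2, while Lfng lost one at +4.8 kb and Rfng one at +7.9 kb with 9.09 and 11.27. Poglut1, which adds O-glucose to the receptors, lost 2 regions. Of the genes for ubiquitin ligases, Neurl1a and Dtx4 lost 2 regions each, Fbxw7 lost 1, and Mib1 and Dtx3 had both a gain and a loss. The Dtx3 pair lay at the gene start, where the region at −0.8 kb had 6.56 and 6.91 at d4 and the one at −0.1 kb had 4.98 and 6.41 at d2. Numbl, a relative of the Notch antagonist Numb, lost 1 region, and Dlk1, a noncanonical ligand, gained 1.

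Of the 38 shared regions of these genes, 3 passed the limma threshold, and all 3 were higher at d4 and lay at gene starts. Over all shared regions 6.20% were higher and 2.78% lower, so that 3 of 38 is near the background. Of all assigned shared regions, 83.6% lay at starts. They belonged to Adam17, a protease that cleaves Notch, with a log2 difference of 0.63 (limma adjusted p = 0.0268), to Ncstn, a subunit of gamma-secretase, with 0.74 (adjusted p = 0.0358), and to Snw1, a nuclear cofactor, with 0.71 (adjusted p = 0.0230). The d4 heights did not overlap those at d2 in any of the 3, which adds little, since limma picked these regions on the same heights. Among regions with a mean pileup of at least 20, Adam17 (limma adjusted p = 0.0576) and Ncstn (adjusted p = 0.0727) did not pass. Snw1 did (adjusted p = 0.0473). With division by background coverage the differences were 0.12, 0.23 and 0.20, and none passed, nor did any of them with quantile normalisation, with the deposited fold enrichment or without either d4 library. Without d2 replicate 2, the difference was 0.31 at Ncstn (limma adjusted p = 0.460) and 0.59 at Snw1 (adjusted p = 0.0852).

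**Figure D4:**
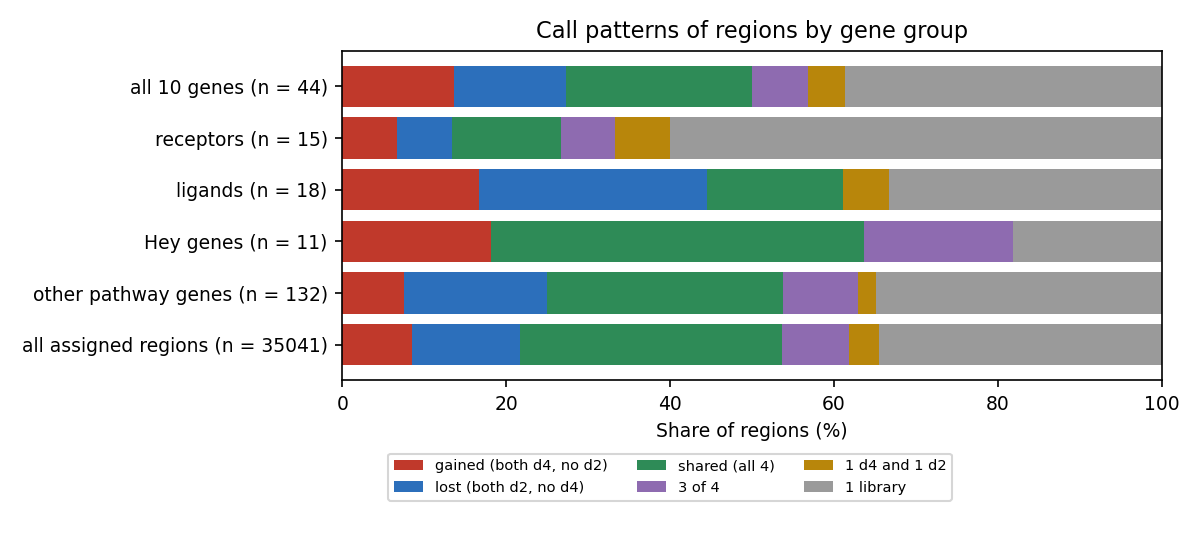
Share of regions (across, in percent) by the libraries in which they had a peak, for the 10 genes, their receptors, ligands and Hey genes, the other pathway genes and all assigned regions, with the number of regions in each bar's label. Gained regions were 13.6% of the regions of the 10 genes, 7.6% of those of the other pathway genes and 8.48% of all assigned regions.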

How the data were processed

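As the methods of the study and the notes of the submitters state, reads were checked by the authors (FastQC), adapters were removed (cutadapt) and mm10 served for alignment (Bowtie2). Mitochondrial reads, duplicates and reads with several positions were discarded. MACS2 then called peaks in every library alone, with no control, and blacklisted regions were taken out. The stated call names both a paired-end mode and a shift and extension of reads, and which of them applied was not tested, so a pileup counts fragments or extended reads. In the deposited lists the fold enrichment is a ratio of pileup to local background, the −log10 p and −log10 q are the authors' Poisson p-value and corrected q-value, and the score, which was not used, derives from the q-value. The lowest −log10 q was between 3.00 and 3.02.

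Groups came from the labels. Pileup and background were solved from fold enrichment and −log10 p, and 100% of peaks gave a whole pileup within 0.01 in −log10 p. The smallest background of a library served as its coverage, which reflects depth and the length of fragments or extended reads, and is not a count of reads. Peaks overlapping by 1 bp were merged and assigned by their nearer edge to the nearest protein-coding start (GENCODE release M 21) within 100 kb, promoters being within 1000 bp. Heights were log2(pileup + 1) and were tested with limma 3.58.1 with a trend (R 4.3.3), adjusted with Benjamini-Hochberg over all shared regions at 0.05. Both the solver and the limma step were tested on simulated data. Python 3.11.15, pandas 2.3.3, scipy 1.17.1, pysam 0.24.0 and samtools 1.23.1 were used, and the promoter sequences came from RefSeq. Motifs were searched in 201 bp around summits.

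All regions of the 10 genes are described. Of the other pathway genes, those with a gained or lost region or a shared region past the threshold are named, and some items are not reported here. Genes, lists and motifs were chosen with earlier results of these data known. Alternatives were −log10 q of at least 5 or 10, the 15000 strongest peaks, peaks covering at least 50% of a region, merging within 500 bp, starts of any gene type, distance from the middle, other scalings and measures of height, a mean pileup of at least 20, a pseudocount of 5, a replicate block and leaving out each library.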

Additional observations from a re-analysis of the deposited data

How the results depend on the processing

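Gained and lost regions numbered 2 each at a −log10 q of at least 10 and 2 each among the 15000 strongest peaks. In both settings the lost ones were Notch2 +11.0 kb and the Notch1 start, which otherwise counted as shared. Gained regions numbered 1 when starts of any gene type were allowed, since the gained regions other than that of the Notch1 intron were nearer to noncoding starts. Leaving out 1 library in turn gave 6 to 9 gained, 7 to 13 lost and 10 to 11 shared regions, with 13 lost without d2 replicate 1 and 12 without d2 replicate 2, where 1 peak then suffices. Regions of the 10 genes past the limma threshold numbered 3 with division by background coverage, and 0 with quantile normalisation (227 called over all regions), with the deposited fold enrichment (123) and with a mean pileup of at least 20 (766), against 1 of 1033 in the reported fit. Leaving out 1 library gave 0 to 1, with 0 without d2 replicate 2, d4 replicate 1 or d4 replicate 2. Under division by background coverage the difference turned to −0.20 at Hey2 −0.1 kb, −0.34 at Jag1 −0.6 kb, −0.14 at Hey1 +0.2 kb, −0.34 at Hey1 −0.5 kb and −0.09 at Hey1 −18.0 kb, and 22 of 1142 calls over all regions were higher at d4, against 713 of 1033. At Hey1 −0.5 kb it was −0.20 with fold enrichment. Leaving out 1 library gave −0.01 to 0.35 there, with −0.01 without d2 replicate 2, and −0.37 to 0.01 at Dll4 +12.1 kb, with 0.01 without d4 replicate 2. The causes of these changes were not tested. The deviations of the replicate 1 libraries, d2 with d4, correlated at 0.013 over 11494 regions. This correlation cannot show whether libraries of the same number came from the same differentiation experiment. With the replicate number as a block, 1 region of the 10 genes passed, of 1172 called. Depth limits the weak regions: with summit pileups as low as 7 at d4 and 6 at d2, a peak can be missed in 1 library or in both of a time point. The d2 libraries had the lower background coverages, 0.568 and 0.483, against 0.755 and 0.744 at d4. The gained regions of Notch1 and Dll1 had d4 pileups of 8 to 12, and the part of depth in their absence at d2 was not tested.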

Other observations

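Beyond the limit of 100 kb, 9 further regions had one of the 10 genes as the nearest protein-coding gene. The closest to the limit lay 100.3 kb from Hey1 and had a peak in 3 libraries, just outside the Hey1 region at −99.6 kb, and the next lay 127.6 kb from Dll1 and had a peak in all 4. Of the 9 regions, 1 was gained, 1 lost and 1 shared, and 4 had a peak in a single library.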
